A study of Mus musculus with 9 samples.

Results

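Lysosomal hydrolases and membrane proteins were followed as a set of 46 named genes in 9 libraries of polyA RNA from a mouse cell line, taken from tables of 24318 genes. All 46 were listed in both deposited tables, and 45 had a mean of at least 1 FPKM (a fragment count corrected for transcript length and library depth) over the 9 libraries, the rule for keeping a gene. The exception was Ctsh, cathepsin H, which averaged 0.0460 FPKM. The libraries form 3 groups of 3. SE-BDEV cells received brain-derived extracellular vesicles (BDEV) labelled SE, which the series title ties to status epilepticus (seizures that do not stop). CON-BDEV cells received BDEV named as control, and the third group is labelled Vehicle, whose makeup is not stated. The library names begin with EV Pilo for SE-BDEV, EV Saline for CON-BDEV and CON for Vehicle. The labels give neither the dose, the time of exposure nor the source animals of the vesicles, and they do not say whether replicates were separate cultures, so the p-values cover only library-to-library spread, possibly technical.

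The labels conflict on the cells: BV2 microglia in the design text, and N2a neuroblastoma as the cell line given for each library. Of 15 microglia and macrophage markers, 13 reached a mean of 1 FPKM, with Tyrobp, a myeloid signalling adaptor, at 712 FPKM and Csf1r, the CSF1 receptor, at 82.6 FPKM. P2ry12 and Cx3cr1, receptors of microglia in the brain, were at 0.0142 and 0.122 FPKM. Of 16 neuroblastoma and neuron markers, 5 reached 1 FPKM (Gata3, Uchl1, Nefh, Ina and Elavl4), and 5, Th, Dbh and Mycn among them, were listed at 0 in every library. Summed FPKM of that neuronal list ran from 184 to 192 in SE-BDEV, 186 to 198 in CON-BDEV and 169 to 176 in Vehicle. The astrocyte list ran from 35.9 to 39.8, 36.9 to 40.7 and 44.3 to 45.3, the oligodendrocyte list from 11.8 to 12.5, 10.8 to 13.4 and 13.9 to 14.1, and the microglial list, which holds Cd68, from 2277 to 2424, 2225 to 2365 and 2206 to 2252 FPKM in the same 3 groups. The endothelial and blood list ran from 42.5 to 47.0, 35.7 to 44.2 and 35.2 to 40.3 FPKM. Of these other lists, 1 of 7 astrocyte markers (Aldoc), 2 of 6 oligodendrocyte markers (Mbp and Cnp) and 1 of 6 endothelial and blood markers (Flt1) reached 1 FPKM, and Aqp4, Mog and Hba-a1 were listed at 0 in every library. The part of these markers in the results below was not tested, and in bulk RNA a change in cell numbers and a change in RNA per cell cannot be told apart. Judged by the spacing of low values, depth was 29798000 to 32781000 fragments per library in SE-BDEV, 29180000 to 32922000 in CON-BDEV and 31288000 to 33756000 in Vehicle.

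Lysosomes are acidic compartments in which hydrolases break down proteins, glycans and lipids that arrive by endocytosis, phagocytosis or autophagy. The soluble enzymes are made in the endoplasmic reticulum, most are tagged with mannose 6-phosphate and sorted to the lysosome, and heavily glycosylated proteins line the membrane. Many of the genes share an E-box-like promoter element called CLEAR, which the MiT/TFE transcription factors (TFEB, TFE3, MITF and TFEC) can bind. In microglia and macrophages these genes are highly expressed, and the cells degrade what they engulf.

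The proteases were the most abundant of the lysosomal transcripts. Ctsk, cathepsin K, a collagen-degrading protease best known from osteoclasts, averaged 3608 FPKM over the 9 libraries. It ranked 5 among the genes of the tables, leaving out 2 genes whose estimate failed for too many fragments. Ctsd, an aspartic protease, averaged 1740.3 FPKM and Ctsz, a carboxypeptidase, 1287 FPKM. The 10 proteases kept had a median of 609 FPKM, with Ctsc, a dipeptidyl peptidase, lowest at 68.96 FPKM. The 8 membrane proteins had a median of 101 FPKM, from Cln3 (25.1) to Cd68, a glycoprotein of phagocyte lysosomes (740.2 FPKM). The 8 glycosidases, which trim sugar chains, had a median of 59.6 FPKM, and the 11 lipid enzymes and their helpers 43.4 FPKM, from the sphingomyelinase Smpd1 (9.72) to Psap, the precursor of the saposins (963 FPKM). The 8 enzymes of glycosaminoglycan breakdown were lowest, with a median of 12.3 FPKM. They ran from the sulfatase Ids (1.28) to the glucuronidase Gusb (235 FPKM), and about 214 fragments stood behind Ids in Vehicle replicate 1 if its longest annotated coding transcript of 4972 nt is used. Over the 45 genes the median of the mean levels was 64.2 FPKM, against 16.3 FPKM over the 10534 genes that passed the same rule, and 18 of the 45 had at least 100 FPKM.

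**Figure D1:**
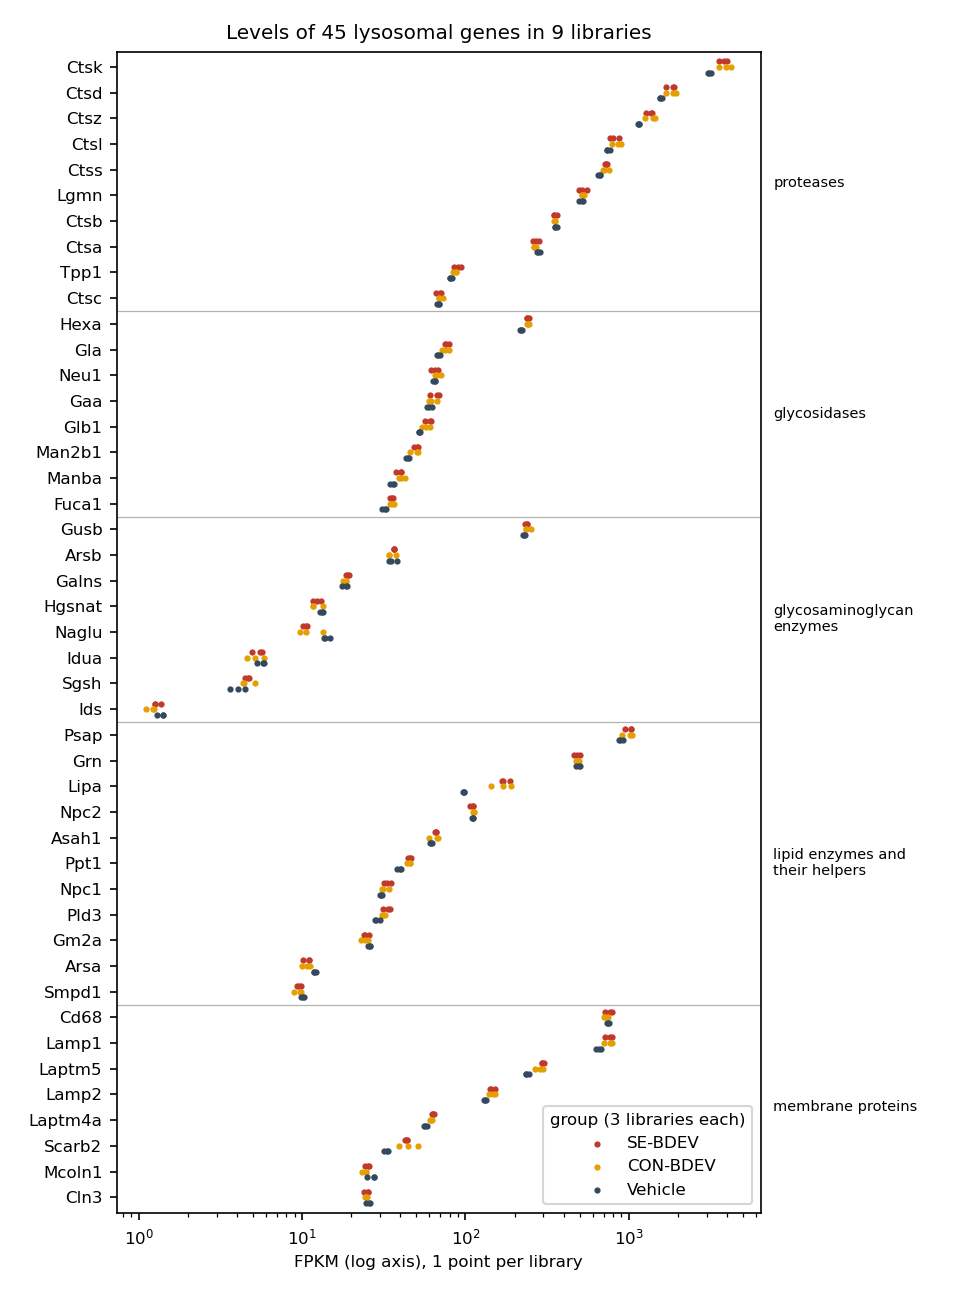
FPKM of 45 lysosomal genes on a log axis, 1 point per library, in 5 role classes and sorted by mean level within each; colours mark SE-BDEV, CON-BDEV and Vehicle with 3 libraries each. Levels span from 1.28 FPKM (Ids) to 3608 FPKM (Ctsk), and the Lipa points of both vesicle groups lie to the right of the Vehicle points.

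Together the 45 genes summed to 14197 to 15196 FPKM in SE-BDEV libraries and 14087 to 15668 FPKM in CON-BDEV libraries, against 13064 to 13192 FPKM in Vehicle libraries. That was 2.42% to 2.56%, 2.33% to 2.55% and 2.20% to 2.23% of a library's summed FPKM, computed without 2 genes whose estimate failed for too many fragments. The 3 Vehicle sums lay below all 6 vesicle sums. Such sums weigh the most abundant genes most, Ctsk, Ctsd and Ctsz first, and do not describe the 45 genes evenly. Replicates were close, with a median coefficient of variation over the 45 genes of 3.66% in SE-BDEV, 4.96% in CON-BDEV and 2.05% in Vehicle. The widest spread in CON-BDEV was that of Naglu (17.2%). Replicate 2 was the lowest library of its group in 28 of 45 genes for SE-BDEV, 25 of 45 for CON-BDEV and 22 of 45 for Vehicle. Over all genes replicate 2 was lowest in 31.6%, 36.5% and 37% in the same order of groups. Its estimated fragments were the fewest of the group in SE-BDEV (29798000) and CON-BDEV (29180000) and the most in Vehicle (33756000).

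Promoter sequences are shown for 5 members to set the 2 genes with the largest increases beside 3 that carry the core of the CLEAR element. They come from RefSeq (GRCm38.p6) and run 5′ to 3′ on the strand of the gene, from 250 bases before to 50 bases after the start of transcription. Capitals mark exact matches, on either strand, to TCACGTGA (the CLEAR core), to CACGTG (the E-box, which every CLEAR core contains) or to TGACNNNGC (the antioxidant response element bound by NRF2).
Lipa, chr19:34527425-34527724, minus strand: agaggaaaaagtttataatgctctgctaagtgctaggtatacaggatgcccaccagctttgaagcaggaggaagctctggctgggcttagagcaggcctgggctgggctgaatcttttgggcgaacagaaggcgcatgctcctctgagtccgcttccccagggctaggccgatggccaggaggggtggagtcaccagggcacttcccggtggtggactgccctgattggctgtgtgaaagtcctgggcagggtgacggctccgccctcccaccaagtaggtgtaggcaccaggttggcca
Scarb2, chr5:92505608-92505907, minus strand: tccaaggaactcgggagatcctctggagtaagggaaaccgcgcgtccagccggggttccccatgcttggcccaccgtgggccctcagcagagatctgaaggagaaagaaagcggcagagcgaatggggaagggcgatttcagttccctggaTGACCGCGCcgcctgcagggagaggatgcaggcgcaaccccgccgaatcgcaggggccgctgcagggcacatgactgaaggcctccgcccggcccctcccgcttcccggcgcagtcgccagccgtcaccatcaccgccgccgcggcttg
Gla, chrX:134600956-134601255, minus strand: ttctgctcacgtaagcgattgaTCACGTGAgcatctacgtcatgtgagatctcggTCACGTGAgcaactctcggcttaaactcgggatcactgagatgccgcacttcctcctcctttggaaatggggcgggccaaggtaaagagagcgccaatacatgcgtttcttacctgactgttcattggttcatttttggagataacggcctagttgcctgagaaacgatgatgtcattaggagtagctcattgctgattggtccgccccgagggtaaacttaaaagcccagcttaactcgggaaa
Ctsd, chr7:142387778-142388077, minus strand: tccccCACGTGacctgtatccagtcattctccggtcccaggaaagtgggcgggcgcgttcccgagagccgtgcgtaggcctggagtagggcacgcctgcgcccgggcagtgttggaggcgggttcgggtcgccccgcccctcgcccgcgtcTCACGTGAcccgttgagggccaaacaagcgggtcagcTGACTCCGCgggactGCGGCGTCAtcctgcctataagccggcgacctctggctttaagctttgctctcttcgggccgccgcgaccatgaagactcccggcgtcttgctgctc
Ctsa, chr2:164833523-164833822, plus strand, the second of the listed starts: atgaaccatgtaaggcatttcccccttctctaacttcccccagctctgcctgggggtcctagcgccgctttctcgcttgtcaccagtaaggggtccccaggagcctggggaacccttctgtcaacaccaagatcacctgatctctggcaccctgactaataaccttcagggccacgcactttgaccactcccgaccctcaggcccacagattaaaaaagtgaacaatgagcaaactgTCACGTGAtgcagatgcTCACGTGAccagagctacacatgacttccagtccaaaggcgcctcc

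The Lipa window held none of the 3 motifs, and the Scarb2 window held 1 antioxidant response element. The Gla window held 2 CLEAR cores, and the Ctsd window held 1 CLEAR core, 1 further E-box and 2 antioxidant response elements. The Ctsa window held 2 CLEAR cores around the start. A promoter was listed for 40 of the 45 genes, and the CLEAR core was found in 5 of these (12.5%), against 2.38% of the 8137 genes, members included, that passed the 1 FPKM rule and had a promoter listed. The E-box was found in 32.5% of the members with a promoter, against 12.4% of those 8137 genes. For the antioxidant response element these were 20% and 17.2%. Over all 32851 promoters of the table, of the same length, 0.974% held the CLEAR core, 7.15% the E-box and 12.4% the antioxidant response element. Of the 18 members called higher with SE-BDEV below, 2 held a CLEAR core, as did 3 of the 22 other members with a promoter. These matches are a description of the letters in these windows, with no test.

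With SE-BDEV, the question was what vesicles named for status epilepticus did to the lysosomal genes. Of the 45 genes, 18 rose (40%) and 1 fell (2.22%) against Vehicle by limma on log2(FPKM + 1) at an adjusted p under 0.05. The background was 6.75% higher, 5.12% lower and 11.9% in either direction of 10534 genes tested. Among the 6813 genes averaging 10 FPKM or more, 8.13% were higher and 5.67% lower. In the authors' deposited table, at a q under 0.05, 4 of the 45 were higher and 1 lower, with 5.36% of 11505 genes called in either direction. The increases were small apart from a few genes: the median log2 fold change over the 45 was 0.13, against -0.00082 over all genes, and the range was -0.39 (Naglu) to 0.83 (Lipa). In 24 of the 45 genes all 3 SE-BDEV libraries lay above all 3 Vehicle libraries (16.5% of all genes) and in 2 they lay below (16.3% of all genes). By role, 5 of 8 glycosidases, 5 of 8 membrane proteins, 4 of 10 proteases and 4 of 11 lipid enzymes and helpers rose, and none of the 8 glycosaminoglycan enzymes did, 1 of which fell. The set was named with earlier results of these data known, so these counts describe it and were not tested as a list.

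With CON-BDEV, the question was the same for vesicles named as control. Of the 45 genes, 8 rose (17.8%) and 0 fell, with a background of 3.81% higher, 1.86% lower and 5.67% in either direction of 10535 genes tested. Among the 6814 genes averaging 10 FPKM or more, 4.81% were higher and 2.1% lower. They were Lipa, Scarb2, Laptm5, Ctsk, Ctsz, Ctsd, Ppt1 and Hexa. By the q in the authors' deposited table, 3 of the 45 were higher and 1 lower, with 4.32% of 11502 genes called. Before adjustment, 24 of the 45 had a p under 0.05 with CON-BDEV (23.5% of all genes), and 26 had one with SE-BDEV (27.4% of all genes). The median log2 fold change was 0.07, against 0.0054 over all genes, and the range was -0.31 (Naglu) to 0.77 (Lipa). All 3 CON-BDEV libraries lay above the Vehicle libraries in 22 genes (16.6% of all genes) and below them in 6 (12.7% of all genes). Both comparisons use the same 3 Vehicle libraries.

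These counts leaned on single libraries, as did those over all genes. With SE-BDEV the 18 became 7, 15 and 16 when SE-BDEV replicates 1, 2 and 3 were dropped in turn. They became 6, 5 and 8 when Vehicle replicates 1, 2 and 3 were. In the same order, the 1250 calls over all genes became 887, 877 and 1312, then 501, 602 and 678. With CON-BDEV the 8 became 8, 14 and 1 when CON-BDEV replicates 1, 2 and 3 were dropped, and 1 when any Vehicle replicate was. The 597 calls over all genes became 1067, 905 and 133, then 110, 84 and 121 without Vehicle replicates 1, 2 and 3. Without CON-BDEV replicate 2 also 1 gene, Naglu, was lower. The calls that held in every fit with 1 library left out were Lipa, Scarb2, Laptm5, Naglu, Ctsk and Ctsz with SE-BDEV and Lipa alone with CON-BDEV. The smallest p that exact permutation of 3 against 3 libraries allows is 0.1, so each gene's call depends on the spread limma shares across genes.

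**Figure D2:**
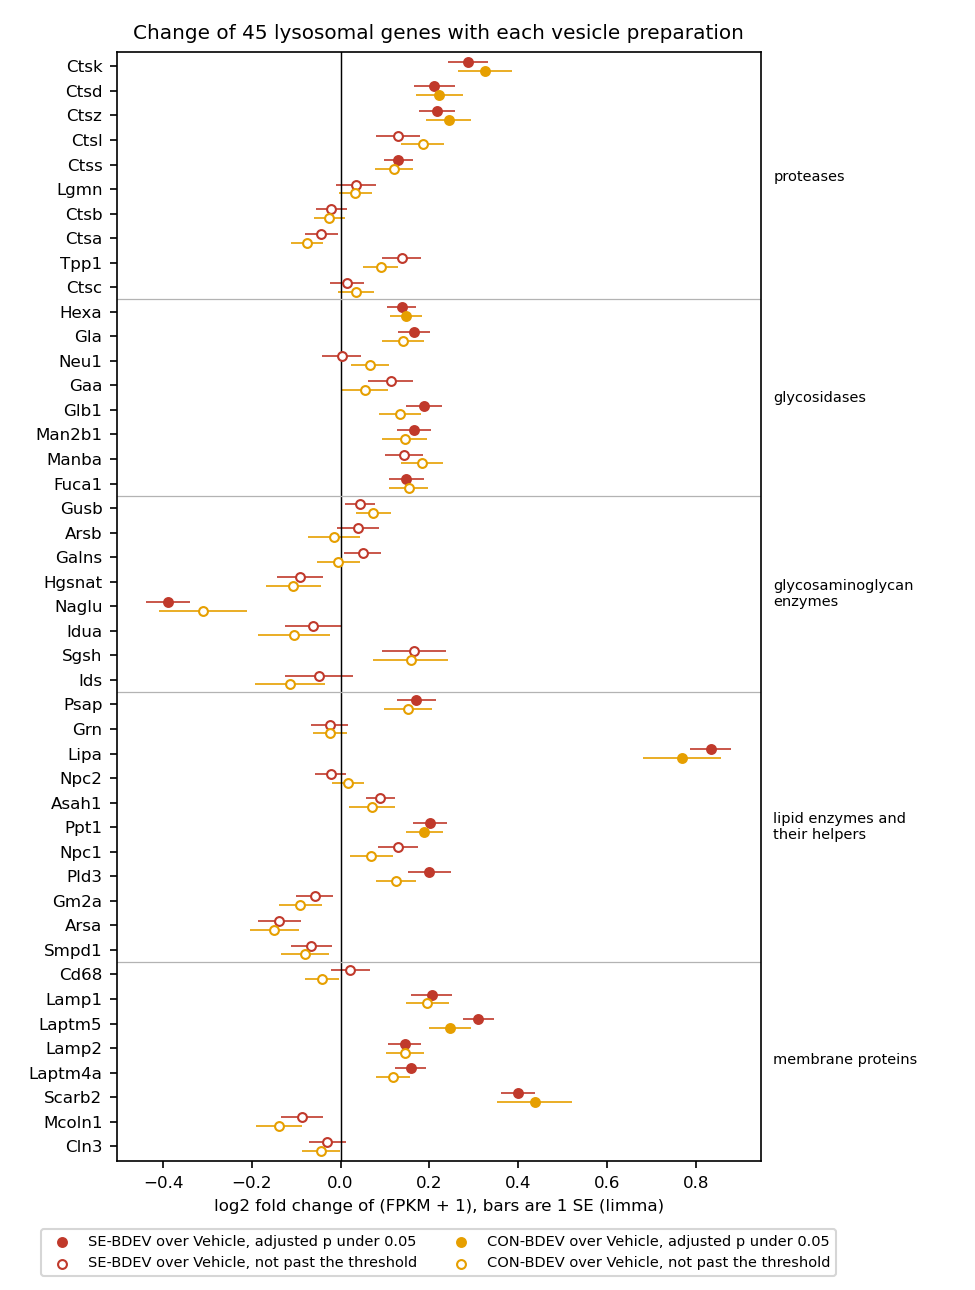
Log2 fold change of (FPKM + 1) over Vehicle for 45 lysosomal genes in 5 role classes, with SE-BDEV drawn above CON-BDEV in each row and bars of 1 SE; filled points passed an adjusted p of 0.05. Lipa lies farthest right (0.83 with SE-BDEV and 0.77 with CON-BDEV) and Naglu farthest left, and most glycosidases and membrane proteins lie right of 0.

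Among the lipid enzymes, Lipa, the acid lipase that frees cholesterol and fatty acids from lipoprotein-derived esters, had the largest increase of the 45. It had 169, 168 and 188 FPKM in SE-BDEV libraries and 170.1, 143 and 191 FPKM in CON-BDEV libraries, against 97.6, 96.5 and 98.4 FPKM in Vehicle libraries. The vesicle libraries did not overlap with Vehicle. The log2 fold change was 0.83 ± 0.05 (SE, adjusted p = 7.09e-06) with SE-BDEV and 0.77 ± 0.09 (adjusted p = 0.00426) with CON-BDEV. In the authors' deposited table the log2 fold changes were 0.84 and 0.79, with q of 0.00196 and 0.00245. Lipa lies on chromosome 19 from 34566806 to 34601964 in mm9, the build of the files.

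Ppt1, the thioesterase that removes palmitate from proteins, rose less. It had 46.7, 44.4 and 45.5 FPKM with SE-BDEV and 45.6, 44.2 and 45.6 FPKM with CON-BDEV, against 40.0, 38.3 and 40.1 FPKM with Vehicle. Its log2 fold changes were 0.20 (adjusted p = 0.0118) and 0.19 (adjusted p = 0.0348), and the SE-BDEV call was lost without Vehicle replicate 2 (adjusted p = 0.0544). The CON-BDEV call held in 2 of 6 fits with 1 library left out, with a highest adjusted p of 0.148. The locus listed for Ppt1 spans 2.16 times the length of the RefSeq gene, and in the authors' deposited tables its q was 0.771 and 0.817. Pld3, a lysosomal phospholipase D family member, and Psap rose with SE-BDEV by 0.20 and 0.17 (adjusted p = 0.0283 and 0.0351). Their values with CON-BDEV were 0.12 and 0.15 (adjusted p = 0.140 and 0.136). Each of these SE-BDEV calls held in 1 of 6 fits with 1 library left out.

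The other lipid genes stayed short of the threshold with both preparations. Npc1 and Npc2, which pass cholesterol out of the lysosome, had log2 fold changes of 0.13 and -0.02 with SE-BDEV and 0.07 and 0.02 with CON-BDEV. Asah1, acid ceramidase, had 0.09 and 0.07. Smpd1 had -0.07 and -0.08, Gm2a, the ganglioside activator, -0.06 and -0.09, and Arsa, which desulfates sulfatide, -0.14 and -0.15. Grn, progranulin, a secreted protein that reaches lysosomes, had -0.02 with both. All 6 vesicle libraries of Arsa lay below the Vehicle libraries (10.2 to 11.1 FPKM with SE-BDEV and 10.1 to 11.2 FPKM with CON-BDEV, against 11.8 to 12.1 FPKM), and its locus spans 2.5 times the RefSeq gene.

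Scarb2, or LIMP-2, the membrane receptor that carries glucocerebrosidase to lysosomes, had the largest increase of the membrane proteins. It had 43.7, 43.9 and 42.6 FPKM in SE-BDEV libraries and 44.3, 39.1 and 51.4 FPKM in CON-BDEV libraries, against 32.9, 31.7 and 33.5 FPKM in Vehicle libraries. All vesicle libraries lay above Vehicle, and the CON-BDEV libraries were spread more widely (SD 6.16) than the SE-BDEV libraries (SD 0.685). The log2 fold changes were 0.40 ± 0.04 (SE, adjusted p = 0.000315) and 0.44 ± 0.08 (adjusted p = 0.0229), the second held in 2 of 6 fits with 1 library left out (up to an adjusted p of 0.102, with Vehicle replicate 2 dropped). The authors' deposited table gave 0.41 and 0.46 (q of 0.00196 and 0.00245). Scarb2 lies on chromosome 5 from 92872899 to 92934634 in mm9.

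Laptm5, a lysosomal membrane protein of blood cells, had 301, 294 and 293 FPKM with SE-BDEV and 285, 267 and 299 FPKM with CON-BDEV, against 235, 235 and 246 FPKM with Vehicle. The groups did not overlap with Vehicle. Its log2 fold change was 0.31 ± 0.03 (SE, adjusted p = 0.000816) with SE-BDEV and 0.25 ± 0.05 (adjusted p = 0.0221) with CON-BDEV, where it held in 2 of 6 fits with 1 library left out (highest adjusted p of 0.104, without Vehicle replicate 1). Lamp1 and Lamp2, the main glycoproteins of the lysosomal membrane, rose with SE-BDEV by 0.21 and 0.14 (adjusted p = 0.0215 and 0.0373).

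Lamp1 had 786, 710.4 and 772 FPKM in SE-BDEV libraries and 762, 705 and 785 FPKM in CON-BDEV libraries, against 660.4, 632 and 673 FPKM in Vehicle libraries. With CON-BDEV its log2 fold change was 0.19 and missed the threshold (adjusted p = 0.0514), and that of Lamp2 was 0.14 (adjusted p = 0.0811). Laptm4a, a relative of Laptm5 found in many tissues, had 64.2, 62.6 and 63.5 FPKM with SE-BDEV and 60.7, 62.4 and 62.0 FPKM with CON-BDEV, against 56.4, 55.9 and 57.9 FPKM with Vehicle. It rose with SE-BDEV (0.16, adjusted p = 0.0198) and had 0.12 with CON-BDEV (adjusted p = 0.105). The SE-BDEV calls of Lamp1 and Laptm4a held in 3 of 6 fits with 1 library left out and that of Lamp2 in 1. Cd68 had 0.02 and -0.04, Mcoln1, the lysosomal calcium channel, -0.09 and -0.14, and Cln3 -0.03 and -0.04, none past the threshold.

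Ctsk led the proteases in both level and increase. It had 3848, 3586 and 3968 FPKM in SE-BDEV libraries and 3942, 3552 and 4237 FPKM in CON-BDEV libraries, against 3051, 3108 and 3176 FPKM in Vehicle libraries. No vesicle library overlapped with Vehicle. The log2 fold changes were 0.29 ± 0.04 (SE, adjusted p = 0.00470) and 0.33 ± 0.06 (adjusted p = 0.0200), with q of 0.0354 and 0.0313 in the authors' deposited table. The CON-BDEV call held in 2 of 6 fits with 1 library left out (highest adjusted p of 0.0906, without Vehicle replicate 1). Ctsk lies on chromosome 3 from 95303132 to 95313309 in mm9, and Ctss starts 17398 bases beyond its end, at 95330708. Ctss, cathepsin S, which trims the invariant chain in antigen presentation, rose with SE-BDEV by 0.13 (adjusted p = 0.0334), a call lost in each of the 6 fits with 1 library left out. With CON-BDEV it had 0.12 (adjusted p = 0.135).

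Ctsz had 1378, 1273 and 1372 FPKM with SE-BDEV and 1440.4, 1260.45 and 1400.3 FPKM with CON-BDEV, against 1158, 1141 and 1159 FPKM with Vehicle. Ctsd had 1858, 1696 and 1899.8 FPKM with SE-BDEV and 1869, 1687 and 1947 FPKM with CON-BDEV, against 1589, 1556 and 1561 FPKM with Vehicle. Replicate 2 was the lowest library of both vesicle groups for each of these genes, and it still lay above every Vehicle library. The log2 fold changes of Ctsz were 0.22 and 0.24 (adjusted p = 0.00971 and 0.0312) and those of Ctsd 0.21 and 0.22 (adjusted p = 0.0195 and 0.0459). The authors' q was above 0.1 for both genes in both of their deposited tables. The locus listed for Ctsz spans 2.01 times the RefSeq gene. The Ctsz call with CON-BDEV held in 2 of 6 fits with 1 library left out, and that of Ctsd in 2 of 6 with SE-BDEV and 1 of 6 with CON-BDEV.

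The remaining 6 proteases did not pass the threshold. Ctsl, a cysteine endopeptidase, had log2 fold changes of 0.13 with SE-BDEV and 0.19 with CON-BDEV (adjusted p = 0.123 and 0.0622). Tpp1, a tripeptidyl peptidase, had 0.14 and 0.09. Ctsb, Ctsc and Lgmn, a protease that cuts after asparagine, lay between -0.03 and 0.04 in both comparisons, and Ctsa, which shields beta-galactosidase and sialidase in a complex, had -0.04 and -0.08. The loci of Ctsa and Ctsb span 3.31 and 2.43 times the RefSeq genes.

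**Figure D3:**
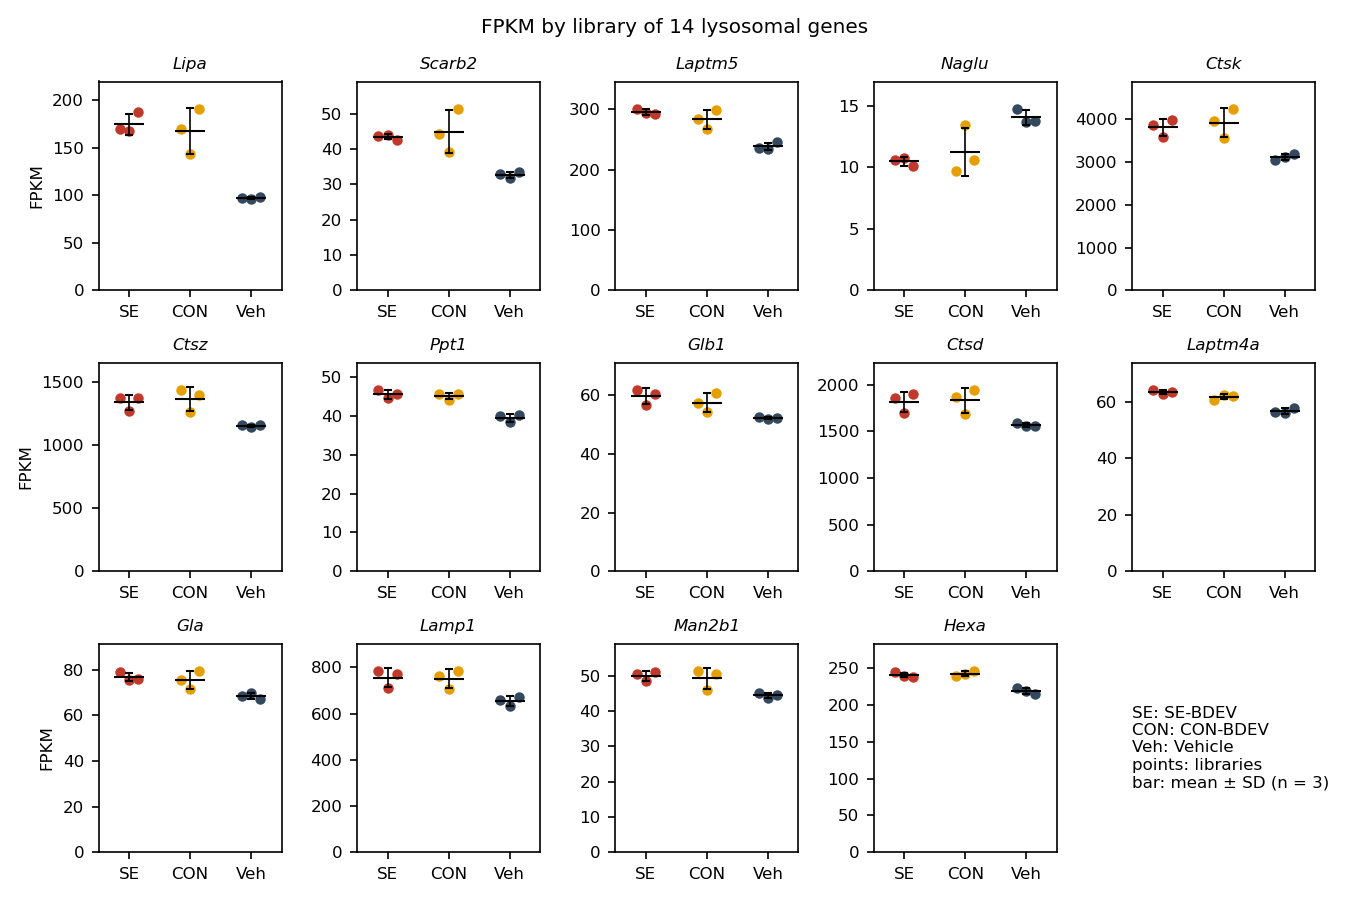
FPKM in each library of the 14 members with the lowest adjusted p in either comparison with Vehicle, with SE-BDEV, CON-BDEV and Vehicle from left to right, points for libraries and bars for the mean ± SD (n = 3); each axis starts at 0. Lipa reached 143 to 191 FPKM in the vesicle libraries, against 96.5 to 98.4 FPKM in Vehicle, and Naglu is the only one of the 14 that was lower.

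Among the glycosidases, 5 of 8 rose with SE-BDEV, and the log2 fold changes of the 8 ran from 0.0022 (Neu1) to 0.19 (Glb1). Glb1, beta-galactosidase, had 61.7, 56.7 and 60.3 FPKM with SE-BDEV and 57.3, 54.2 and 60.6 FPKM with CON-BDEV, against 52.4, 51.8 and 52.2 FPKM with Vehicle. Gla, alpha-galactosidase A, had 79.0, 75.4 and 76.1 FPKM with SE-BDEV and 75.4, 71.6 and 79.6 FPKM with CON-BDEV, against 68.4, 69.8 and 67.0 FPKM with Vehicle. Both stood above all Vehicle libraries in every vesicle library. With SE-BDEV Glb1 rose by 0.19 and Gla by 0.17 (adjusted p = 0.0185 and 0.0199), and with CON-BDEV they had 0.13 and 0.14 (adjusted p = 0.134 and 0.118).

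Man2b1, lysosomal alpha-mannosidase, had 50.5, 48.4 and 50.9 FPKM with SE-BDEV and 51.4, 45.9 and 50.4 FPKM with CON-BDEV, against 45.02, 43.6 and 44.6 FPKM with Vehicle. Hexa, the alpha subunit of beta-hexosaminidase, had 244, 239 and 237 FPKM with SE-BDEV and 239, 241 and 246 FPKM with CON-BDEV, against 222, 218 and 215 FPKM with Vehicle. Neither gene overlapped with Vehicle. Man2b1 rose by 0.17 with SE-BDEV (adjusted p = 0.0223) and had 0.14 with CON-BDEV (adjusted p = 0.127), and Hexa rose by 0.14 and 0.15 (adjusted p = 0.0278 and 0.0475). Fuca1, a fucosidase, rose with SE-BDEV by 0.15 (adjusted p = 0.0402) and had 0.15 with CON-BDEV (adjusted p = 0.0779). Manba, beta-mannosidase, had 0.14 and 0.18, Gaa, the glycogen-degrading glucosidase, 0.11 and 0.05, and Neu1, a sialidase, 0.0022 and 0.07, none past the threshold. The SE-BDEV calls of the 5 glycosidases held in 0 to 2 of the 6 fits with 1 library left out, and the CON-BDEV call of Hexa in 1.

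The enzymes of glycosaminoglycan breakdown did not share in the increase. Naglu, which removes N-acetylglucosamine from heparan sulfate, was the gene that fell with SE-BDEV. It had 10.6, 10.8 and 10.1 FPKM with SE-BDEV and 9.72, 13.4 and 10.6 FPKM with CON-BDEV, against 14.8, 13.7 and 13.8 FPKM with Vehicle. The vesicle libraries did not overlap with Vehicle, but CON-BDEV replicate 2 lay close to it. The log2 fold changes were -0.39 ± 0.05 (SE, adjusted p = 0.00150) and -0.31 ± 0.10 (adjusted p = 0.102). The authors' deposited table gave -0.42 and -0.32, with q of 0.00369 and 0.0292. Naglu lies on chromosome 11 from 100931408 to 100938985 in mm9.

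Of the others, Sgsh, heparan N-sulfatase, had 0.17 with SE-BDEV and 0.16 with CON-BDEV (adjusted p = 0.170 and 0.293), and its locus spans 3.39 times the RefSeq gene. Hgsnat, which acetylates heparan sulfate in the same pathway, had -0.09 and -0.11. The iduronate enzymes Ids and Idua had -0.05 and -0.06 with SE-BDEV and -0.11 and -0.10 with CON-BDEV, and the locus of Idua spans 2.22 times the RefSeq gene. Gusb, Arsb and Galns, which act on several glycosaminoglycans, had 0.04, 0.04 and 0.05 with SE-BDEV and 0.07, -0.02 and -0.0048 with CON-BDEV. None of these 7 passed the threshold. The median of the 8 genes was -0.0050 with SE-BDEV and -0.06 with CON-BDEV, against 0.15 and 0.14 for the glycosidases and 0.15 and 0.13 for the membrane proteins.

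The library codes in the labels start with 1 or 2, and the labels do not say what that number marks. Within number 1 (1 vesicle library against 2 Vehicle libraries) and within number 2 (2 against 1), the differences of a few members are given without a test. Lipa had log2 differences of 0.80 and 0.84 with SE-BDEV and 0.80 and 0.74 with CON-BDEV. Naglu had -0.39 and -0.37 with SE-BDEV and -0.50 and -0.19 with CON-BDEV. With that number as a block, 16 of the 45 genes were higher with SE-BDEV (601 of all 10534 genes) and 3 with CON-BDEV (192 of all 10535 genes).

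SE-BDEV was then set against CON-BDEV in 1 fit of all 9 libraries, to ask whether the seizure-named vesicles acted differently on these genes. No gene of the 45 passed the threshold in either direction, with a background of 0% of 10532 genes tested. Before adjustment limma gave a p under 0.05 to 0 of the 45 and to 509 (4.83%) of all genes. The log2 differences ran from -0.08 (Naglu) to 0.08 (Pld3), with a median of 0.01. The 95% intervals of the 45 differences reached from -0.28 to 0.25, and their median width was 0.21. For Lipa the difference was 0.06, with an interval of -0.12 to 0.25, and for Scarb2 -0.04 (-0.21 to 0.13). Laptm5 had 0.06 (-0.03 to 0.16), Ctsk -0.04 (-0.17 to 0.10) and Naglu -0.08 (-0.28 to 0.12). The SE-BDEV libraries lay above all CON-BDEV libraries in 2 genes, Ids and Laptm4a (2.74% of all genes), and below them in 0 (5.19% of all genes). Each gene's interval gives the differences that remain compatible with its values, so the absence of calls does not show that the preparations acted alike. The larger number of calls with SE-BDEV over Vehicle is not in itself evidence of a difference between the preparations.

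**Figure D4:**
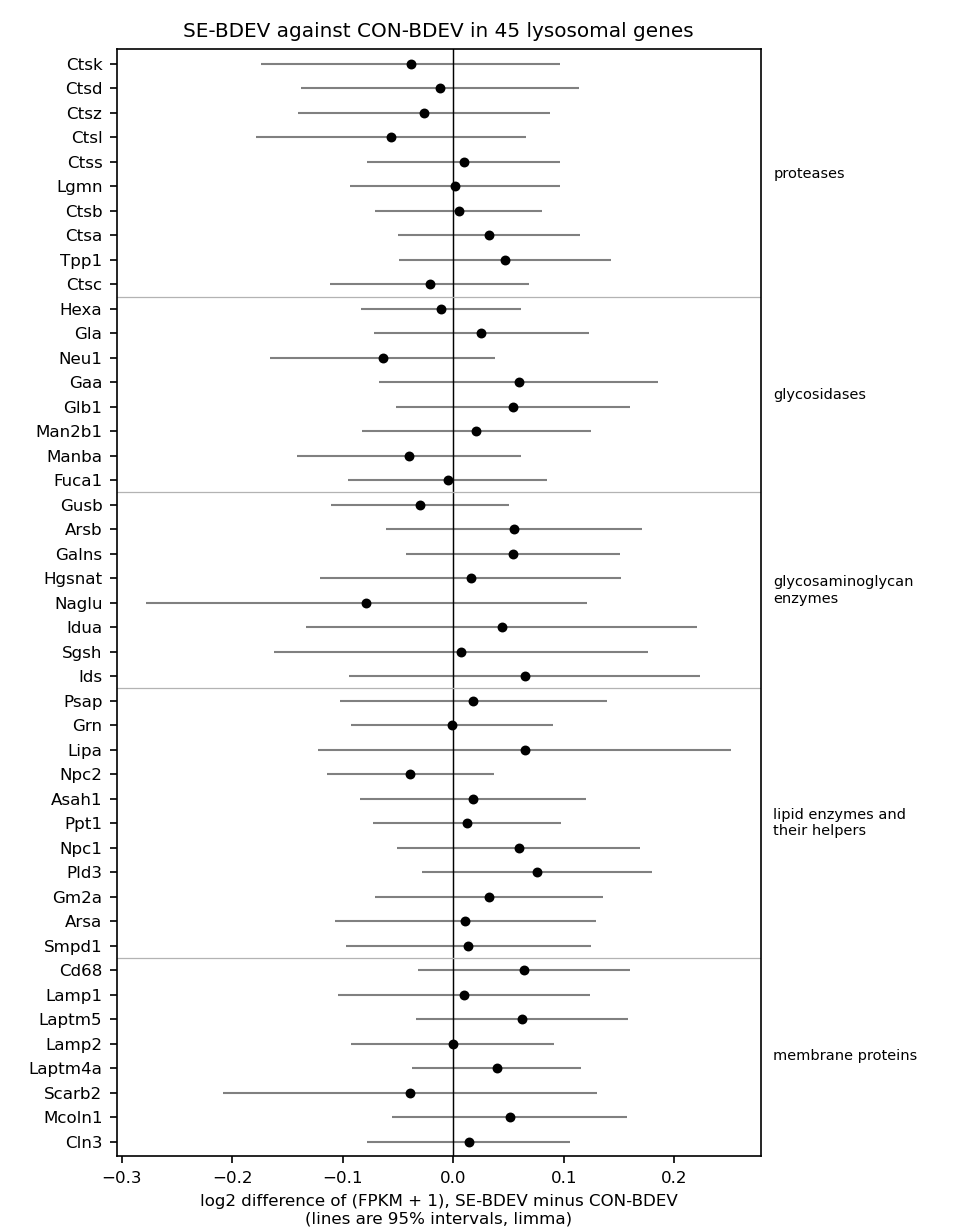
Log2 difference of (FPKM + 1), SE-BDEV minus CON-BDEV, for 45 lysosomal genes in 5 role classes, with 95% intervals from limma. All points lie between -0.08 and 0.08 and every interval includes 0.

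Lysosomal genes outside the 45 were read from 5 further lists, to be set against 6.75% higher and 5.12% lower of all genes with SE-BDEV and 3.81% and 1.86% with CON-BDEV. For each list and comparison, up to 4 calls with the largest absolute log2 fold change were checked further. Of these, 7 of 16 with SE-BDEV held under every alternative and every fit with 1 library left out. They were Hyal1, Pla2g15, Prcp, Slc11a1, Cd63, Tfec and Mitf. With CON-BDEV 1 of 12 (Slc11a1) held. The SE-BDEV increases of Ifi30 and Ctsf given below are not among the 16. Of 27 other hydrolases and helpers tested, 8 were higher and 2 lower with SE-BDEV and 6 higher and 0 lower with CON-BDEV (median log2 fold change of 0.10 and 0.12). Acp5, an acid phosphatase of osteoclasts and macrophages, rose by 0.35 and 0.33 (adjusted p = 0.0210 and 0.0425), and Pla2g15, a lysosomal phospholipase, by 0.27 and 0.31 (adjusted p = 0.00390 and 0.00864). Ifi30, a thiol reductase of antigen processing, rose by 0.24 and 0.30, and the protease Ctsf by 0.22 and 0.26. Hyal1, a hyaluronidase and so another glycosaminoglycan enzyme, fell with SE-BDEV by 0.28 (adjusted p = 0.00417), as did Prcp, a carboxypeptidase, by 0.25 (adjusted p = 0.00808). With 1 library left out, the Acp5 calls held in 3 and 2 of 6 fits, and with CON-BDEV Pla2g15 held in 5, Ifi30 in 4 and Ctsf in 1.

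Of 29 other lysosomal membrane proteins tested, 5 were higher and 2 lower with SE-BDEV and 3 higher and 1 lower with CON-BDEV (median 0.05 with both). Slc11a1, or NRAMP1, which pumps metal ions out of phagosomes, had 122 ± 6.81 FPKM with SE-BDEV and 118 ± 10.4 FPKM with CON-BDEV, against 67.9 ± 1.75 FPKM with Vehicle (mean ± SD, n = 3 each). Its log2 fold changes were 0.84 and 0.78 (adjusted p = 6.74e-06 and 0.000909), about the size of those of Lipa. The tetraspanin Cd63 rose by 0.33 and 0.37 (adjusted p = 0.000310 and 0.00864). The cystine exporter Ctns rose with SE-BDEV by 0.28 (adjusted p = 0.0456), and Mfsd1 rose with CON-BDEV by 0.15 (adjusted p = 0.0450). Tmem175, a lysosomal potassium and proton channel, fell by 0.24 with SE-BDEV (adjusted p = 0.0250) and by 0.33 with CON-BDEV (adjusted p = 0.0323). These Tmem175 calls held in 1 and 2 of 6 fits with 1 library left out (highest adjusted p of 0.107 and 0.138), Ctns in 1 and Mfsd1 in 2.

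Of 9 MiT/TFE factors and regulators tested, 4 were higher with SE-BDEV and 2 with CON-BDEV, and 0 were lower (median 0.06 and 0.17). Tfeb, named here after its values were seen, was called in neither comparison and had -0.12 with SE-BDEV (adjusted p = 0.185). Tfec, a macrophage member of that transcription factor family, had 19.9 ± 0.889 FPKM with SE-BDEV and 18.5 ± 2.67 FPKM with CON-BDEV, against 12.7 ± 1.09 FPKM with Vehicle. It rose by 0.61 and 0.50 (adjusted p = 0.000477 and 0.0262), and Mitf by 0.35 and 0.37 (adjusted p = 0.00937 and 0.0212). With CON-BDEV both calls held in 2 of 6 fits with 1 library left out. Tfe3 and Flcn, a regulator of TFEB and TFE3, rose with SE-BDEV by 0.13 and 0.17 (adjusted p = 0.0459 and 0.0498), and both calls were lost when single libraries were left out (highest adjusted p of 0.154 and 0.168).

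Of 13 genes that sort proteins to lysosomes, 2 were higher with SE-BDEV and 1 with CON-BDEV, and 0 were lower. Over all genes, 6.75% were higher with SE-BDEV and 3.81% with CON-BDEV, and counts this small were not tested against those shares. M6pr, the cation-dependent mannose 6-phosphate receptor, rose by 0.18 and 0.17 (adjusted p = 0.0161 and 0.0357), and Cln8 rose with SE-BDEV by 0.20 (adjusted p = 0.0271). Of 5 protease inhibitors, Cst3, cystatin C, rose by 0.15 and 0.20 (adjusted p = 0.0477 and 0.0182), and Cst7, cystatin F, rose with SE-BDEV by 0.29 (adjusted p = 0.0145). With 1 library left out, the M6pr calls held in 3 and 1 of 6 fits, those of Cst3 in 1 and 2, Cln8 in 2 and Cst7 in 4. No gene of the 5 lists passed the threshold between SE-BDEV and CON-BDEV.

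**Figure D5:**
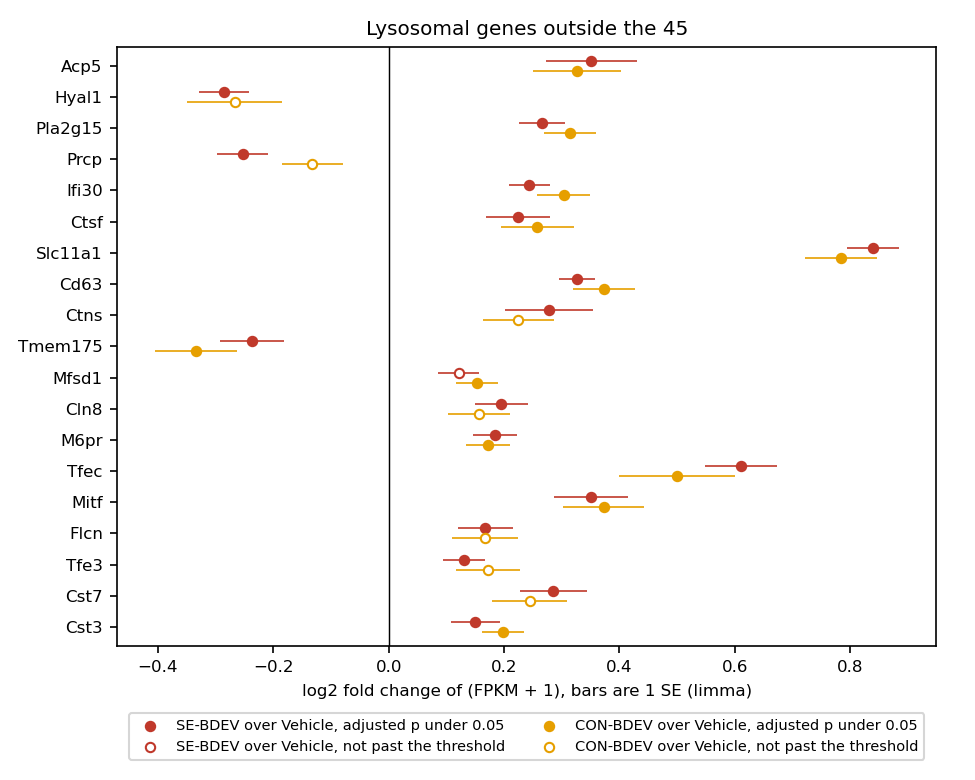
Log2 fold change of (FPKM + 1) over Vehicle for the lysosomal genes outside the 45 that are named in the text as called. SE-BDEV is drawn above CON-BDEV in each row, with bars of 1 SE, and filled points passed an adjusted p of 0.05. Slc11a1 (0.84 and 0.78) and Tfec (0.61 and 0.50) lie farthest right, and Hyal1, Prcp and Tmem175 lie left of 0.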

How the data were processed

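PolyA-selected RNA of 9 libraries was sequenced with a directional kit, per the labels' protocols. TopHat2, Cuffdiff and build mm9 are named in the submitters' processing notes, and the annotation is not given in the sources used here. The authors deposited FPKM per gene and library in 1 table for each vesicle group with Vehicle, and Cuffdiff tables with mean FPKM, log2 fold change, a test score, p-value and q-value, per the file headers. The score was not used. The Vehicle columns of both tables differ by 1 factor per library (1.00042, 1.00012 and 1.00078), so SE-BDEV values were divided by their geometric mean to print 9 joined values. Locus starts behave as counted from 0 (8563 of 23049 genes match RefSeq lengths so, 536 otherwise), and 1 was added. Directional counting is not stated, so overlapping genes are uncertain.

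Values were tested as log2(FPKM + 1), a scale that understates changes of low genes, for genes averaging 1 FPKM or more, with limma 3.58.1 in R 4.3.3 (eBayes with a mean-variance trend, 2-sided, Benjamini-Hochberg over all genes tested, threshold 0.05). Each vesicle group was fitted with Vehicle within its own table, and SE-BDEV with CON-BDEV in all 9 joined libraries. The 2 genes with too many fragments were left out. Depth came from steps under 0.05 FPKM, with 17 genes of 1 annotated transcript for its scale. Per-library values are printed for the 14 members with the lowest adjusted p. Up to 4 called genes of each further list in each comparison are named, and Tfeb was added after its values were seen. The members and lists were chosen with earlier results of these data known. The fits were tested on simulated data. Alternatives were a pseudocount of 0.1, other filters, quantile normalization, blocks, other libraries in the fit, no trend and leaving out each library.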

Additional observations from a re-analysis of the deposited data

How the results depend on the processing

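The number of lysosomal genes called higher with SE-BDEV over Vehicle (18) was 10 with no filter on low values, which tests more genes, and 5 to 16 with 1 library left out, and the 1 lower gene stayed 1 in each of those fits. With CON-BDEV the 8 became 1 with no filter, 5 after quantile normalization, 3 with the library code number as a block, 4 without the mean-variance trend and 1 to 14 with 1 library left out, and the count of lower genes was 0 to 1. Over all genes, the 1250 calls with SE-BDEV became 726 with no filter, 830 in a fit of all 9 libraries and 501 to 1312 with 1 library left out. The 597 with CON-BDEV became 112 with no filter, 550 after quantile normalization and 364 with the replicate block. They became 275 with the library code number as a block, 416 without the mean-variance trend and 84 to 1067 with 1 library left out. After quantile normalization 54.7% of the CON-BDEV calls were higher, against 67.2% as deposited. Between SE-BDEV and CON-BDEV the count was 0, and 1 without the mean-variance trend, 0 to 1 with 1 library left out, and no lysosomal gene was called in any of these fits. The cause of the other shifts was not tested.

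Libraries that share a replicate number did not deviate together (mean correlation of their deviations from the group means -0.04), and 3 of the 9 correlated best with their own number. With the replicate block 15 of the 45 genes were higher with SE-BDEV (598 of all 10534 genes) and 6 with CON-BDEV (250 of all 10535 genes). Of the called members, 5 of 19 with SE-BDEV (Lipa, Scarb2, Laptm5, Naglu and Ctsz) and 1 of 8 with CON-BDEV (Lipa) held under every alternative and every fit with 1 library left out. Without SE-BDEV replicate 1 the median log2 fold change of the 45 was 0.09. No named call changed direction. The files hold no counts, so counting error is not printed, and the lowest genes such as Ids and Sgsh limit what can be seen.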
